A study of Mus musculus with 2 samples.

Results

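The B lineage genes described here are Ebf1, Pax5, Spib, Pou2af1, Cd79a, Cd79b, Ms4a1, Cr2 and Bank1. They are 9 of the 21853 protein-coding genes of the GENCODE M21 annotation, all were found by symbol, and the rule that names them uses no measured value. A locus is the gene body extended by 10 kb at each end. The data are DNase-seq of urinary bladder from B6CASTF1/J females, a first-generation cross of the C57BL/6 and CAST strains, aged 18 to 20 months. DNase I cuts accessible DNA, and regions dense in cuts were called as peaks by the authors. There were 2 libraries of this group, biological replicates 1 and 2, and no second group, drug or genotype. The labels tie both tissue samples to the same donor record and do not say whether they came from separate animals, so the spread between libraries may be technical in part.

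B cells are made from lymphoid progenitors. The transcription factor EBF1 opens the B cell programme, PAX5 fixes it and shuts other fates, and the mature cell carries a receptor whose signal passes through the CD79A and CD79B chains. In bladder, lymphocytes are a minor population beside urothelium, smooth muscle and fibroblasts. On marker lists of the labelled tissue, a promoter peak was found at 9 and 8 of 9 urothelium genes in replicates 1 and 2. Smooth muscle genes had one at 9 and 6 of 9, and fibroblast genes at 7 of 7 in each library. Of all protein-coding genes 64.1% and 66.4% had one, and smooth muscle in replicate 2, at 66.7%, was near that share. In a bulk tissue, fewer B cells and less accessible DNA per B cell cannot be told apart.

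Replicate 1 had 84591 peaks and replicate 2 had 112174 in the longer deposited lists, with a median peak signal of 0.819 and 0.760. The authors' signal is a whole multiple of a fixed step per library, 0.00853 and 0.00884, so the median peak held 96 and 86 steps. What the factor scales to is not stated, and total depth is unknown. In the shorter deposited lists there were 51500 and 70031 peaks. Beside each count below, the replicate 1 value is given before that of replicate 2 unless named.

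The sequences shown first are the promoter peaks of the 5 genes that had one, and the strongest other site at Ebf1. These promoter peaks lay within 1 kb of a start site, that of Cd79b in exon 2. Each sequence runs 5′ to 3′ on the strand of its gene in mm10. Capitals mark bases inside a footprint, a short protected stretch within a peak, called in either library. Where a peak reached into an untranslated region, only its longest part outside is given.
Ebf1 promoter, chr11:44617121-44617316: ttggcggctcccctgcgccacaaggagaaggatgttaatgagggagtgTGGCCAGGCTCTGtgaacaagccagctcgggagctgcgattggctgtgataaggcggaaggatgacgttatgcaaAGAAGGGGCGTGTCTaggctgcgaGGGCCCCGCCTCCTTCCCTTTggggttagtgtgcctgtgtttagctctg
Ebf1 upstream site, chr11:44610961-44611160: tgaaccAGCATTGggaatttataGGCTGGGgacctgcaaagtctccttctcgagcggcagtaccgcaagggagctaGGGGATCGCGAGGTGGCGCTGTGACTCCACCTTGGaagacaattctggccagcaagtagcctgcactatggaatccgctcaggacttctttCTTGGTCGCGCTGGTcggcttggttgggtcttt
Pax5 promoter, chr4:44704421-44704660: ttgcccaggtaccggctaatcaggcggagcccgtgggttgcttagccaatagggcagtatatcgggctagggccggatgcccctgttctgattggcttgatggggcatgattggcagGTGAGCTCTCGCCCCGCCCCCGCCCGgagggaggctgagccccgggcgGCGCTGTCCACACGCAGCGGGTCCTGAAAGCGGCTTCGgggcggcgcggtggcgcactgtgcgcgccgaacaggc
Cd79b exon 2, chr11:106313581-106313800: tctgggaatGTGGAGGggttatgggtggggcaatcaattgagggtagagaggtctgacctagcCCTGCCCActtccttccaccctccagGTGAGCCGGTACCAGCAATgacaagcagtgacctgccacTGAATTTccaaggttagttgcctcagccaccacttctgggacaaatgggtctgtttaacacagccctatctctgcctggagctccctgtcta
Bank1 promoter, chr3:136326067-136326160: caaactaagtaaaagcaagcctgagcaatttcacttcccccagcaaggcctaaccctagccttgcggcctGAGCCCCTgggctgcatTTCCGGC
Cr2 promoter, chr1:195176717-195176860: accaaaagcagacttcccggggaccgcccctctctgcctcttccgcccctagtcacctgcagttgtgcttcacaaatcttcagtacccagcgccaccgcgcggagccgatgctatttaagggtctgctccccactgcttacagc
The Cr2 sequence has no capitals, since no footprint was called there in either library.

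The first question was which of the genes had an accessible promoter in bladder. A promoter peak, within 1 kb of a start site of a protein-coding transcript, was present at 5 of the 9 genes in each library, against 64.1% and 66.4% of all protein-coding genes. These were Ebf1, Pax5, Cd79b, Bank1 and Cr2, the same 5 genes in both libraries, against 63% of all genes with one in both. Spib, Pou2af1, Cd79a and Ms4a1 had none in either library, and neither did 32.5% of all protein-coding genes. The strength of the promoter peaks fell into steps. Ebf1 had 3.002 and 3.65 (mean 3.33 ± 0.458, SD, n = 2), close to the median of all promoters with a peak, 3.27 and 3.42. Pax5 had 1.501 and 1.98 (1.74 ± 0.338). Cd79b had 0.938 and 0.716 (0.827 ± 0.157) and Bank1 0.691 and 0.901 (0.796 ± 0.149), and these overlap in range. Cr2 was lowest, at 0.529 and 0.380 (0.454 ± 0.105). The Ebf1 promoter peak held 352 and 413 steps and that of Cr2 62 and 43. All members with a promoter peak other than Ebf1 lay below the median of all promoters in both libraries.

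**Figure D1:**
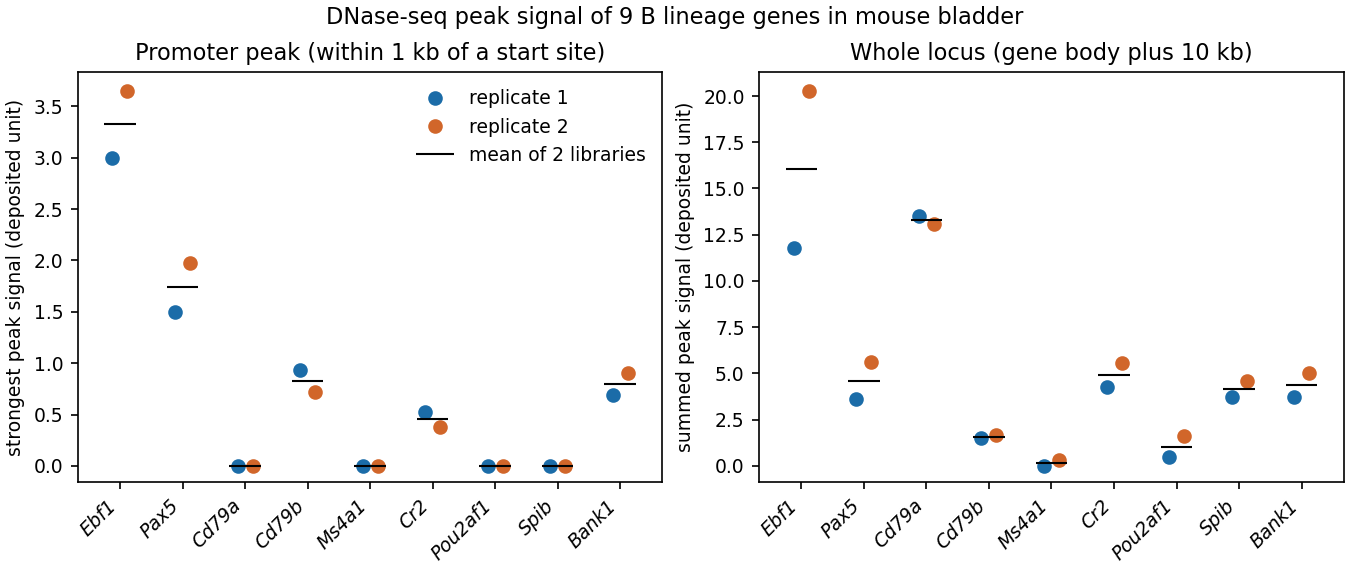
Peak signal of the 9 genes in replicate 1 (blue) and replicate 2 (orange), with the mean of both as a line: the strongest promoter peak (left) and the sum over the locus (right), in the authors' signal unit. Ebf1 leads at the promoter with 3.002 and 3.65, 4 genes are at 0 there, and Cd79a is at 13.5 and 13.1 over the locus without a promoter peak.

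The promoter calls at Cd79b and Cr2 changed with the rule. That of Cd79b lay 729 and 738 bp from the nearer start site, and none was left within 500 bp, where 4 genes counted in each library. Cr2 and Cd79b were in the shorter peak list of replicate 1 and not in that of replicate 2, so that list gave 5 and 3 genes. When each library was cut to its 40000 strongest peaks, 3 and 2 genes had a promoter peak, Ebf1 and Pax5 in both libraries and Cd79b in replicate 1. The shares of all genes under these stricter rules were not set beside the counts, so whether such a fall is usual is unknown.

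Below the peak threshold, the cut-rate FDR that the authors deposited for each stretch gave the same division. Within 1 kb of a start site its lowest value was 1.97e-14 and 5.13e-15 at Ebf1, 1.37e-13 and 5.03e-15 at Pax5 and 4.38e-07 and 1.83e-08 at Bank1. It was 1.55e-06 and 0.00368 at Cd79b and 6.63e-05 and 0.00359 at Cr2. No base under 0.05 was listed within 1 kb of any start site of Spib, Pou2af1, Cd79a or Ms4a1 in either library. A listed stretch was thus found at 5 of 9 genes in each library, against 64.9% and 67.2% of all genes. Of all genes that lacked a promoter peak in both, 1.24% and 1.84% had one, so its absence at these 4 genes is the usual case and shows no more than the peak lists do.

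Promoters rich in CpG dinucleotides are accessible in most tissues, so the genes were read against promoters of like CpG content, in 3 classes of equal size. Cd79a, Cd79b, Ms4a1, Pou2af1, Spib and Bank1 are in the class with the least CpG, and 2 of these 6 had a promoter peak, against 16.3% and 19.3% of all genes in that class. Ebf1 and Cr2 are in the middle class, where 80.1% and 83.3% of all genes had one. Pax5 is in the richest class, where 95.9% and 96.6% did. A peak at Ebf1, Cr2 and Pax5 is therefore what most genes of their class show, and the 4 genes without one are all in the class where few genes have one.

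Ebf1, the pioneer factor of the lineage and a factor also used by mesenchymal cells, spans chromosome 11 from 44617317 to 45008091. Its locus held 14 and 24 peaks with a summed signal of 11.8 and 20.3, above 78.7% and 91.5% of all protein-coding loci. At 391 kb it is the longest of the 9 genes, and per 10 kb, promoters left out, it held 0.292 and 0.560 peaks, above 56.8% and 67.4% of genes. Peaks of both libraries merged into 29 sites, of which 9 were found in both, 5 in replicate 1 alone and 15 in replicate 2 alone. No site lay within 1 kb of a start site of another protein-coding gene.

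Strong accessibility at Ebf1 was at the ends of the gene. The site 6256 bp upstream had 1.96 in replicate 1 and 3.85 in replicate 2, within Gm37695, an annotated gene on the other strand with no settled type. Another, centred 210 bp beyond the 3′ end of the gene, had 1.46 and 2.34. Between them lay 25 intron sites, 12 of these in intron 6, and these were weaker: the highest was 0.895 and 0.831, the median 0.405 and 0.473. Of the intron sites 5 were called in both libraries. The strongest of those that were not are a site centred 1033 bp into the gene (0.895, replicate 1 alone) and one at 5197 bp (0.831, replicate 2 alone). Both are above the median peak of their library, and the other library had no listed cut-rate stretch in either.

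**Figure D2:**
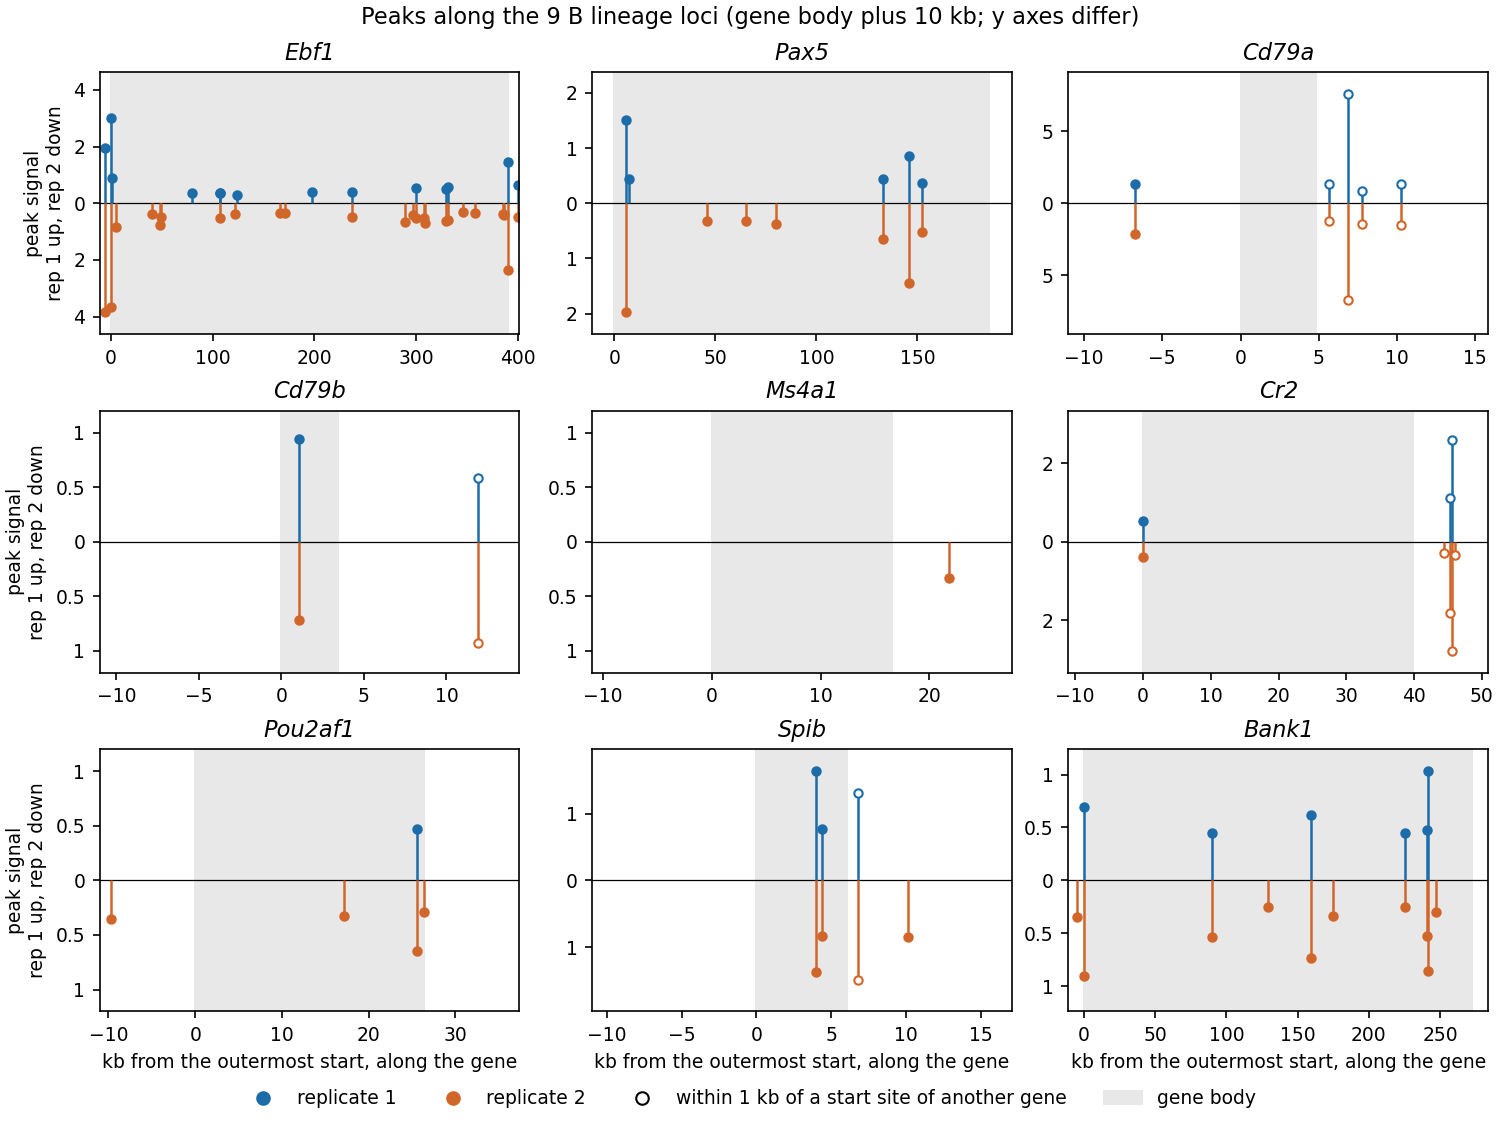
Peak signal along each locus, replicate 1 upward and replicate 2 downward, against distance in kb from the outermost start of the gene, with the gene body in grey. Open points lie within 1 kb of a start site of another protein-coding gene: 4 of 5 sites at Cd79a and 4 of 5 at Cr2, and none of 29 at Ebf1. Filled points have no such start site within 1 kb, and some of them lie inside other annotated genes.

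Pax5, the factor that commits cells to the B lineage, lies on the minus strand of chromosome 4 from 44524757 to 44710487. It is transcribed from alternative first exons, of which the distal is used mainly in B cells. The promoter peak sat at the proximal start site, 415 bp from 44704006 in both libraries, and overlapped another annotated gene, 5730488B01Rik. Further peaks lay near other start sites in a single library each, at 0.435 in replicate 1 (9 bp from 44703413) and 0.318 in replicate 2 (283 bp from 44645723). At the distal start sites, 44710408 to 44710487, no peak came within 5748 bp in either library and no stretch under 0.05 was listed within 1 kb. The locus held 5 and 7 peaks summing to 3.61 and 5.62, above 42.1% and 45.4% of all loci. Its strongest site away from promoters, in intron 8, had 0.861 and 1.44. Neighbours of this site, in introns 8 and 7, were also found in both libraries, at 0.367 and 0.530 and at 0.443 and 0.654. Besides these, sites at 0.380 in intron 6 and 0.318 in intron 5 were called in replicate 2 alone.

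Spib, an ETS-family factor of B cells and plasmacytoid dendritic cells, is on chromosome 7, 44525993 to 44532071, minus strand. Its promoter had no peak, with the nearest one 3056 and 3036 bp from a start site, yet the 3′ end of the gene was accessible. A peak over the coding part of exon 6 had 1.64 and 1.38 (mean 1.51 ± 0.183, SD, n = 2), with 4 and 3 footprints, and was above the median peak in both libraries. Next to it a site in the untranslated part of the same exon had 0.776 and 0.839. Outside promoters this locus held 0.767 and 1.15 peaks per 10 kb, above 86.1% and 90.5% of genes, the highest of the 9 in both libraries. That density rests on only 2 and 3 peaks in a window of 26.1 kb. A site of 1.30 and 1.49 beyond the 3′ end lay within 1 kb of a start site of Mybpc2, a myosin-binding protein gene. Another downstream site, inside Mybpc2, was called in replicate 2 alone at 0.857, above the median peak there.

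Pou2af1, the coactivator of octamer-binding factors in B cells (chromosome 9, 51213708 to 51240080), had the fewest sites seen in both libraries of the 4 transcription regulators. Its locus summed to 0.469 in replicate 1 and 1.62 in replicate 2, above 22.5% and 26.5% of loci. A single site, in the untranslated part of exon 5, was shared, at 0.469 and 0.645. The other 3 were called in replicate 2 alone at 0.292 to 0.353. From the nearer start site to the nearest peak was 6078 and 2238 bp.

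The receptor chains Cd79a and Cd79b differed in where their signal lay. Cd79a (chromosome 7, 24897381 to 24902197) had no peak inside its gene body in either library, although its locus summed to 13.5 and 13.1, above 84.0% and 76.5% of loci. Of the site signal, 89.3% and 83.6% lay within 1 kb of start sites of the next gene, Arhgef1, which codes for a guanine nucleotide exchange factor, led by a peak of 7.60 and 6.73. The remaining site, 6740 bp upstream of Cd79a, had 1.34 and 2.15. In replicate 1 a pair of deposited peaks fell in the first Arhgef1 site, so the replicate 1 sum counts both. With only the strongest peak of each site counted it was 12.5.

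Cd79b (chromosome 11, 106311341 to 106314762, minus strand) held 2 sites. Its peak covered coding exon 2, centred 838 bp from the start site, with 2 and 3 footprints. The other, 0.588 and 0.928, lay beyond the 3′ end within 1 kb of a start site of Gh, the growth hormone gene. No Cd79b site was left once promoter peaks were set aside.

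Among the surface proteins, Ms4a1, which encodes CD20 (chromosome 19, 11249675 to 11266241), had the least signal of the 9 genes. Replicate 1 had no peak in its locus and replicate 2 a single peak of 0.336, 5191 bp beyond the gene and inside 4930526L06Rik, an antisense gene. From its start site the nearest peak was 81869 bp away in replicate 1 and 21694 bp in replicate 2, farther than for 90.8% and 85.2% of genes. Cr2, which encodes the complement receptor of B cells and follicular dendritic cells (chromosome 1, 195136811 to 195176716), had its promoter peak and no other site in the gene body. Of its site signal, 87.6% and 93.2% lay within 1 kb of start sites of Cr1l, the neighbouring gene for a related complement regulator, led by a peak of 2.59 and 2.78.

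Bank1, a scaffold of B cell receptor signalling (chromosome 3, 136053363 to 136326066, minus strand), overlaps the antisense gene Gm31243 in part and held 6 and 10 peaks, summing to 3.71 and 5.04, above 42.5% and 42.6% of loci. Its strongest site was in intron 10, at 1.03 and 0.857 (0.944 ± 0.123, SD, n = 2), above its own promoter in replicate 1 and below it in replicate 2. The sequence of this site, chr3:136084201-136084440 on the gene's strand, is shown because it holds footprints over known motif letters, with footprints again in capitals.
Bank1 intron 10: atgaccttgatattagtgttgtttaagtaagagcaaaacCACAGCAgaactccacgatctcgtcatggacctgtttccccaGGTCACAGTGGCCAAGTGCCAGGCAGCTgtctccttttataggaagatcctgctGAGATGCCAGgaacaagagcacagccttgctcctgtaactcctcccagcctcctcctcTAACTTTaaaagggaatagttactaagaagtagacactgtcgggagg
A RUNX match (TGTGGTT, on the other strand here) and an E-box match (CAGCTG) in it each overlapped a footprint in both libraries. Of all RUNX matches in 200 bp around peak centres, 14.5% and 15.1% overlapped a footprint. Of all E-box matches there, 18.7% and 18.6% did. Further shared sites of Bank1 were in intron 7 (0.614 and 0.733), intron 5 (0.452 and 0.539) and exon 9 (0.443 and 0.256).

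Counted over the 9 loci, at least 1 peak lay in the locus of 8 and 9 genes, against 80.2% and 83.1% of all genes, and in the gene body of 7 in each library, against 69.5% and 72.6%. The median density outside promoters was 0.171 and 0.307 peaks per 10 kb over the 9 genes and 0.223 and 0.355 over all genes. Summed locus signal had a median of 3.71 and 5.04, against 5.12 and 6.58. The loci held 40 and 62 peaks, of which 17 and 20 exceeded the library's median and 13 and 24 were in its lowest quintile. In the shorter lists 24 of 40 and 31 of 62 were found, against 60% and 61.5% of all peaks. None of the member peaks was more than 50% repeat-masked, against 3.05% and 3.30% of all peaks.

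Those peaks merged into 69 sites, 42 of them in introns, 14 downstream, 6 upstream, 3 in coding exons and 4 in untranslated exons. The sites found in both libraries numbered 32, those in replicate 1 alone 7 and those in replicate 2 alone 30. Of member peaks, 82.5% in replicate 1 and 51.6% in replicate 2 overlapped a peak of the other library, against 84.7% and 64.1% of all peaks. Of the peaks called in a single library, 1 of 7 and 1 of 30 held a listed stretch under 0.05 in the other, against 20.9% and 11.8% of all such peaks. Of the 69 sites, 8 were above the median peak in both libraries and away from start sites of other protein-coding genes. These were 3 at Ebf1, 2 at Pax5, and 1 each at Cd79a, Spib and Bank1. The share of all sites that meet both conditions was not computed, so whether 8 is few or usual is unknown.

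Between libraries, the 32 paired member peaks had a median log2 ratio of replicate 2 over replicate 1 of 0.26, against 0.14 for all 70427 pairs. Replicate 2 was higher in 23 of the 32, against 62.9% of all pairs. After the median of all pairs was taken off, every member pair lay within 2-fold, against 94.7% of all pairs, and their SD was 0.43 log2 units, against 0.50. The Ebf1 upstream site differed most toward replicate 2, by 0.83 after centring. The Bank1 exon 9 site differed most toward replicate 1, at -0.93, on 52 steps in replicate 1 and 29 in replicate 2. The Ebf1 promoter was at 0.14. Summed over the locus, 7 of the 8 genes with a peak in both libraries had more signal in replicate 2, against 82.9% of all such loci. The other gene was Cd79a, at 13.1 in replicate 2 and 13.5 in replicate 1, where both peaks of the first Arhgef1 site are counted. With the weaker of that pair left out, the replicate 1 sum was 12.5, below that of replicate 2. The direction at Cd79a thus depended on whether that called peak was counted. With 1 library on each side these ratios have no replicate check.

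**Figure D3:**
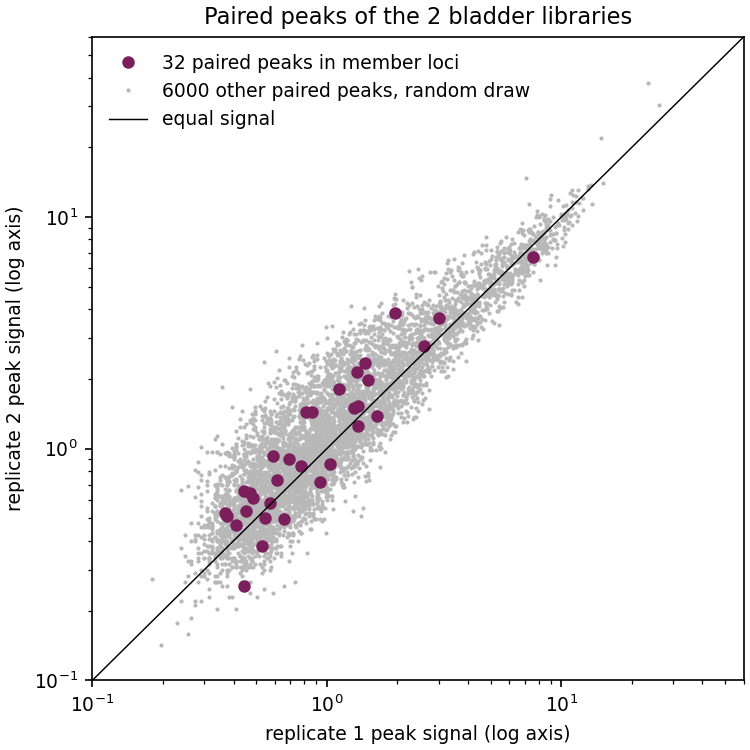
Signal of paired peaks in replicate 2 against replicate 1 on log axes, with the 32 pairs of the B lineage loci in purple, a random draw of other pairs in grey and a line of equal signal. Member pairs lie inside the grey cloud, and the highest, 7.60 and 6.73, is the Arhgef1 promoter in the Cd79a locus.

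Footprints were counted next. The loci held 65 and 107 footprints with a median length of 9 and 8 bp. Member peaks had 8.67 and 9.11 footprints per kb, against 9.77 and 9.61 in all peaks and 8.68 and 8.36 in all peaks of like signal. At least 1 footprint lay in 30 of 40 and 42 of 62 member peaks, against 76.7% and 75.9% of all peaks. Of the footprints, 53.8% and 29.9% overlapped one in the other library, against 55.1% and 40.7% of all footprints. None at Pou2af1 did, with 1 and 6 footprints there. At Pax5 5 did, of 6 in replicate 1 and 13 in replicate 2.

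Motif letters were searched on both strands of the member sites. A CTCF core was found at 4 sites, and each of the 4 overlapped a footprint in both libraries. Of all such cores in 200 bp around peak centres, 72.7% and 78.9% overlapped a footprint. CTCF is the protein that binds insulators and loop anchors. In 200 bp around the peak centre, 4 member peaks in each library held the core, 10% and 6.45%, against 8.65% and 9.60% of all peaks. These sites are shown side by side, 30 bases each on the strand of the match with the core in capitals, because a footprint overlapped the core in both libraries at each.
Ebf1 beyond the 3′ end, chr11:45008295-45008324: tggctcatgCCAGCAGAGGGCagcagtacg
Pax5 intron 8, chr4:44564739-44564768: gactggcggCCACTAGAGGGCagcaaagag
Cd79a upstream, chr7:24890619-24890648: actcttcggCCACTAGGTGGCagctgctag
Spib exon 6, chr7:44527660-44527689: gacatctcaCCAGCAGGTGGCgctgtctac
The first 3 had centred log2 ratios of 0.54, 0.60 and 0.54, toward replicate 2, and that at Spib -0.03. Their median was 0.54, against 0.63 over all 6962 pairs with the core in the 200 bp windows of both libraries.

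Letters of B cell factors had few matches in these sites. The shares of member peaks with octamer, PU.1-type or ETS-IRF letters were above those of all peaks, each on at most 5 peaks per library. The share with E-box letters (CAGCTG) was below, at 15% and 11.3%, against 17.2% and 16.2% of all peaks. RUNX letters (TGTGGTT) were in 0% and 4.84% of member peaks, against 4.04% and 4.23% of all peaks. The EBF palindrome was in none of the 69 sites and in 0.780% and 0.834% of all peaks, and the NF-kB motif in none and in 0.301% and 0.308%. The octamer (ATGCAAAT) was found once, in the site beyond the 3′ end of Ebf1, outside footprints. It was in 2.5% and 1.61% of member peaks, a single peak in each library, against 0.809% and 0.875% of all peaks. The ETS letters of PU.1 type (GAGGAAGT) were found at 3 sites. Each of these sites lay within 1 kb of a start site of another gene, Arhgef1, Gh or Cr1l. The match in a footprint of both libraries was in Arhgef1. These letters were in 2 of 40 and 4 of 62 member peaks, 5% and 6.45%, against 1.94% and 2.06% of all peaks. The ETS-IRF composite was found at 2 sites, centred at -103 bp from a Bank1 start site and in the site near Gh, neither in a footprint. Within the 200 bp windows, which reach past the ends of narrow peaks, it was in 2 of 40 and 5 of 62 member peaks, 5% and 8.06%, against 1.70% and 1.89% of all peaks. AP-1 letters (TGANTCA) had 10 matches in the sites, 2 of them in a footprint, and were in 12.5% and 17.7% of member peaks, against 14.8% and 13.9% of all peaks. The KLF/SP letters (GGGCGGG) had 8 matches in the sites, among them an overlapping pair in the Pax5 promoter, and were in 12.5% and 6.45% of member peaks, against 14.1% and 11.4% of all peaks. By library, 4 of 8 and 4 of 6 matches in member peaks overlapped a footprint, against 50.9% and 54.3% of the matches in all peaks.

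To set the 9 genes among others of the lineage, 38 further genes in 5 lists were read the same way. Together 17 and 19 of the 38 had a promoter peak, beside 5 of the 9 and 64.1% and 66.4% of all protein-coding genes. B cell regulators, transcription factors most of which other cell types also use, had one at 9 and 10 of 10 genes, led by Tcf3 (5.74 ± 0.242, SD, n = 2), Bach2 (3.43 ± 0.337) and Foxo1 (3.12 ± 0.484). Spi1 was the gene that had one in replicate 2 alone, at 0.999. Receptor and signalling genes had one at 4 and 5 of 10, led by the kinase Lyn (2.14 ± 0.0418), the linker Blnk (1.49 ± 0.443) and the kinase Syk (1.05 ± 0.223). Cd22 and Blk had none, and Cd72 had one in replicate 2 alone, at 0.583.

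Pre-B genes had a promoter peak at none of 6 in either library, among them Vpreb1 and Igll1, which code for the surrogate light chain, and Vpreb3. Mature B genes had one at 1 of 6, the chemokine receptor gene Cxcr5, at 0.614 and 0.778. Plasma cell genes had one at 3 of 6, Xbp1 (8.17 ± 0.273), Sdc1 (3.29 ± 0.0401) and Prdm1 (1.09 ± 0.120), which epithelial cells also use, and Jchain and Tnfrsf17 had none. By CpG class, 2 and 3 of 20 of these 38 genes had a promoter peak in the poorest class, 6 and 7 of 9 in the middle class and 9 of 9 in the richest. Of other blood lists, T cell genes had one at 1 and 2 of 8 and macrophage genes at 2 and 1 of 8. All genes of these 2 lists, and all 6 pre-B genes, are in the poorest CpG class. In that class 16.3% and 19.3% of all genes had one, and 2 of 6 members did.

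**Figure D4:**
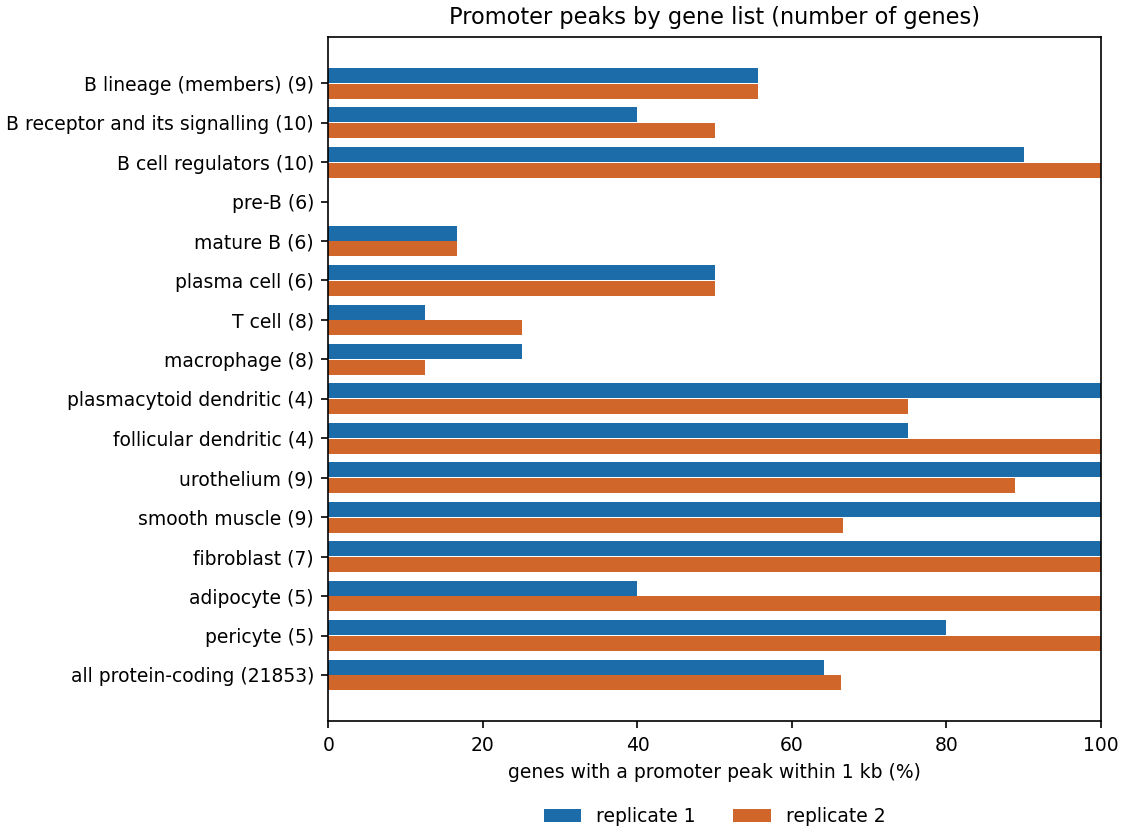
Share of genes with a promoter peak within 1 kb, in percent, for each list in replicate 1 (blue) and replicate 2 (orange), with the number of genes in brackets and all protein-coding genes in the last row. The 9 members are at 55.6% in both libraries, pre-B genes at 0 and all protein-coding genes at 64.1% and 66.4%.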

How the data were processed

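The deposited files of each library were used on their own, none pooled. The authors' alignments and files are on mm10 per the file listing deposited with each library, and the sources used here do not name the aligner, peak caller or footprint tool. Peak signal as deposited is never negative and is a whole multiple of a fixed step per library (100% of peaks within a tolerance of 0.02). The values on the p-value scale deposited by the authors are the false discovery rate (FDR) of the cut rate, with only stretches under 0.05 listed, and 0.01 in every row of the footprint lists. Genes, exons and start sites came from GENCODE M21 (21853 protein-coding genes and 54361 start sites of their protein-coding transcripts), and exon numbers from the member transcript with the most exons. Sequence came from GRCm38.p6, the assembly of mm10, which is C57BL/6J. Reads of the CAST chromosomes were thus set against a C57BL/6J reference, and an effect of this on the values was not tested. Peaks overlapping by at least 1 bp were shared, and overlapping member peaks were merged into sites. The signal of a site in a library is that of its strongest peak there. Footprints were assigned by midpoint. The overlap counting was tested on simulated intervals. Python 3.11.15, pandas 2.3.3 and NumPy 2.4.6 were used.

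The members and gene lists were chosen with earlier results of these data known. The genes named are the 9 members and, from each other list, the 3 whose promoter signal was highest on average and at most 3 lacking a promoter peak in both libraries, and some genes that this rule takes are not named. Genes named outside the rule (Spi1, Cd72, Ms4a4a, Pax2, Siglech and Cxcl13) were chosen after their values were seen. With 2 libraries of 1 group no p-value was computed, and no gene of like pattern was sought. The libraries differ in number of peaks, so values are given per library.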

Additional observations from a re-analysis of the deposited data

How the results depend on the processing

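Values here are means over both libraries, and those of all genes or peaks under the changed settings were not set beside them. With the 40000 strongest peaks of each library the 9 genes had 2.5 promoter peaks on average, against 5. The median density, 0.239 peaks per 10 kb, was 0.384 with 50 kb on either side, 0.110 in the shorter list, 0 among the 40000 strongest peaks and 0.588 with promoter peaks kept. The median locus signal, 4.37, was 1.101 over gene bodies only and 1.74 with promoter peaks left out. Footprints per kb of member peak, 8.89, were 12.2 in the shorter list and 7.83 without promoter peaks. The median library ratio, 0.11 on the log2 scale, was 0.26 without centring. In the other settings tried these values, the shared peaks and the cut-rate count moved by less than the spread between libraries or, for counts, by under 1.5 times. For single genes, the locus signals of Pax5, Cd79a, Cd79b, Cr2, Spib and Bank1 moved by more than that spread under at least 1 setting. Those of Ebf1, Ms4a1 and Pou2af1 did so under none tried, but their spread was wide, at an SD of 6.0, 0.237 and 0.812. In the shorter list these signals still fell, from 16.0 to 10.4, from 0.168 to 0 and from 1.04 to 0.323. With each library left out in turn, promoter peaks stayed at 5, density ran from 0.171 to 0.307, locus signal from 3.71 to 5.04 and footprints from 8.67 to 9.11. No paired analysis was possible because there is 1 group. Total depth is unknown, so whether a weak site called in a single library is absent from the other was not tested, and 2 libraries limit the precision of every mean.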

Other observations

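Genes related to the 9 by family were read the same way (a further 2 symbols were not matched). Of the 11 found, 5 and 8 had a promoter peak, against 64.1% and 66.4% of all protein-coding genes. Ebf2, whose product binds the same letters as EBF1 and acts in adipose and other mesenchymal cells, had the highest, at 4.82 and 5.10 (mean 4.96 ± 0.199, SD, n = 2), beside 3.002 and 3.65 for Ebf1. Cr1l had 2.59 and 2.78 and Ebf3 1.12 and 1.99. Pax8, Spic and Ms4a2 had none in either library, and Pax2 and Ms4a4a had one in replicate 2 alone, at 0.504 and 0.309.

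Other cell types that use some of the 9 genes were listed too. All counts here stand beside 64.1% and 66.4% of all protein-coding genes. Plasmacytoid dendritic cell genes had a promoter peak at 4 and 3 of 4, led by Bst2 (3.36 and 4.48). Siglech was lowest, at 0.333 in replicate 1 alone. Follicular dendritic cell genes had one at 3 and 4 of 4, led by Mfge8 (3.02 and 3.96). Cxcl13 was lowest on average, at 0.401 and 0.389, and Madcam1 had 1.03 in replicate 2 alone. Adipocyte genes had one at 2 and 5 of 5, led by Pparg (1.88 and 2.34), and pericyte genes at 4 and 5 of 5, led by Kcnj8 (1.71 and 1.41). Their part in the signal at the 9 genes was not tested.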
